A study of Mus musculus with 41 samples.

Results

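Interferon-stimulated effector and regulator genes were followed through 13 RNA-seq libraries of mouse androgenetic haploid embryonic stem cells (AG-haESCs), cells that carry a single, paternal chromosome set. The set holds 42 genes, which were chosen by their symbols. All 42 were found among the 24028 gene symbols of the deposited tables, each on a single row. They were divided by role into 7 signalling factors, 11 nucleic acid sensors or RNA-acting enzymes and 24 effectors and other inducible genes. The genes were chosen from earlier measured values of these libraries, in which members differed between media and after the switch of medium. The levels by medium and the switch differences are therefore given as a description, and no test of them is used as support. FPKM scales the number of sequenced fragments to transcript length and library size, so levels can be set side by side between genes.

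The libraries come from haploid C57BL/6 cells. 2i/L is a serum medium with LIF, the MEK inhibitor PD0325901 at 1 µM and the GSK3 inhibitor CHIR99021 at 3 µM. It was used for wild-type 2i-14 with 3 libraries (passages p18, p39 and p50), for 2i-O48 with 1 library and for 2i-O48-TKO with 1 library. H19-DMR and IG-DMR, imprinting control regions, are deleted in 2i-O48. The line 2i-O48-TKO lacks these and, in addition, the gene H19. The serum-free medium SF/a2i/L holds LIF, CHIR99021 at 3 µM and, in place of PD0325901, the Src inhibitor CGP77675 at 1.5 µM. Wild-type lines derived by the two-step protocol and kept in it are called TSa2i/L. They gave 3 libraries of TSa2i-14 (p22, p47, p54) and 2 of TSa2i-C57 (p9, p58). Each line of the 2i/L medium also gave 1 library 5 passages after a switch into SF/a2i/L. Values of the 3 switched cultures are always given in the order 2i-14, then 2i-O48, then 2i-O48-TKO, and those of a wild-type line in the order of its passages. The labels give no passage for 2i-O48, 2i-O48-TKO and the switched cells. Passages of a line are not independent lines, 2i-14 is the single wild-type line in 2i/L, and medium and line cannot be told apart in the comparison of TSa2i/L with 2i/L. The deletions cannot be told apart from the lines that carry them. The lines were kept on fibroblast feeder cells, and cDNA was amplified from the haploid cells before sequencing.

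Type I interferons signal through the receptor subunits IFNAR1 and IFNAR2 and the kinases JAK1 and TYK2 to transcription factors, among them STAT2, which enters the nucleus with IRF9 to switch on interferon-stimulated genes. Their products recognise foreign nucleic acid, block steps of viral replication or adjust the response itself. Embryonic stem cells are known for a weak interferon response compared with differentiated cells.

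Complexes that hold STAT2 and IRF9 bind elements built from repeats of GAAA, so promoters were searched for 2 copies of GAAA with 2 bases between them, on either strand, in the 250 bases before the start of each gene. RefSeq promoter sequences (GRCm38.p6) were matched for 31 members. 8 of these 31 (25.8%) held the motif, Bst2, Ifit1, Ifit3, Ifitm2, Isg15, Oas1a, Rsad2 and Stat2, against 936 of 27025 genes with a sequence (3.46%). A match is a string of letters and not a proven site, and overlapping matches were joined. 6 of the 8 windows are shown, 4 of genes that were higher after the switch in every line, 1 that was not (Isg15) and that of Ifitm2, whose level was high in every library. The sequences run 5′ to 3′ on the strand of the gene, and capitals mark the matches, which read TTTC where the motif lies on the opposite strand. The windows are chr8:71537567-71537622 on the minus strand for Bst2, chr5:120907526-120907565 on the minus strand for Oas1a, chr12:26456543-26456592 on the minus strand for Rsad2, chr10:128270256-128270305 on the plus strand for Stat2, chr4:156200855-156200916 on the minus strand for Isg15 and chr7:140955978-140956027 on the minus strand for Ifitm2.
Bst2: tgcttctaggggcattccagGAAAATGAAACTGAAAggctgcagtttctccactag
Oas1a: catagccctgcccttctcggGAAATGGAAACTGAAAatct
Rsad2: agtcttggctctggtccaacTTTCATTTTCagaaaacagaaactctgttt
Stat2: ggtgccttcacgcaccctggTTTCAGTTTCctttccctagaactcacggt
Isg15: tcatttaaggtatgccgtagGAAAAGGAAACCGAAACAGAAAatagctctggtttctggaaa
Ifitm2: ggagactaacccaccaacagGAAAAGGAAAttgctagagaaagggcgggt

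The implied depth was 12800000 to 19800000 fragments per library, at which 3 fragments on a transcript of 1 kb correspond to 0.152 to 0.235 FPKM. All libraries held pluripotent cell markers, with Pou5f1 at 59.6 to 168 FPKM and Nanog at 110 to 467 FPKM. Fibroblast markers stood out in TSa2i-14 p54, 2i-14 p39 and TSa2i-C57 p58, which also carried Y-linked RNA, at 0 in 8 libraries. Results that rest on these 3 libraries are given with and without them where this was possible. Of the macrophage markers, Emr1 was listed at 0 in all 13 libraries, Csf1r reached 0.339 FPKM at most, and Cd68 stood at 15.5 to 129 FPKM.

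21 of the 42 genes had a mean under 1 FPKM in 2i/L. Of these 21, 11, 10 and 5 reached 1 FPKM in the 3 switched cultures, and 9 did so in none of them. In TSa2i-14 12, 1 and 17 of the 21 reached it, and in TSa2i-C57 0 and 14 did. The 21 were picked as low in 2i/L. The share of all symbols low in 2i/L that reached 1 FPKM was not counted, so nothing is read from these counts. 38 of the 42 genes reached 1 FPKM in at least 1 library and 17 did so in all 13. Mx1 and Mx2, GTPases that block viral entry into the nucleus or replication, peaked at 0.492 and 0.838 FPKM, Parp14 at 0.692 and Ifih1 at 0.562, so these 4 stayed under 1 FPKM throughout. The basal level in 2i/L, as the mean of its 5 libraries, spanned the whole range. Ifitm1, Ifitm2 and Ifitm3, membrane proteins that hinder virus entry, were above 100 FPKM. 6 genes lay between 10 and 100 FPKM (Bst2, Xaf1, Oas1a, Ifi35, Trim25 and Ifnar2), 12 between 1 and 10, and 21 under 1. Of these 21, 2 are signalling factors (Usp18 and Irf7), 5 are sensors (Oas2, Dhx58, Oasl1, Oasl2 and Ifih1) and 14 are effectors. The median over the 42 genes was 0.707 to 1.40 FPKM in the 5 libraries in 2i/L. After the switch it was 7.19, 4.17 and 1.83 FPKM. In TSa2i-14 it was 5.19 FPKM at p22, 0.928 at p47 and 7.55 at p54, and in TSa2i-C57 it was 0.734 at p9 and 3.98 at p58.

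**Figure D1:**
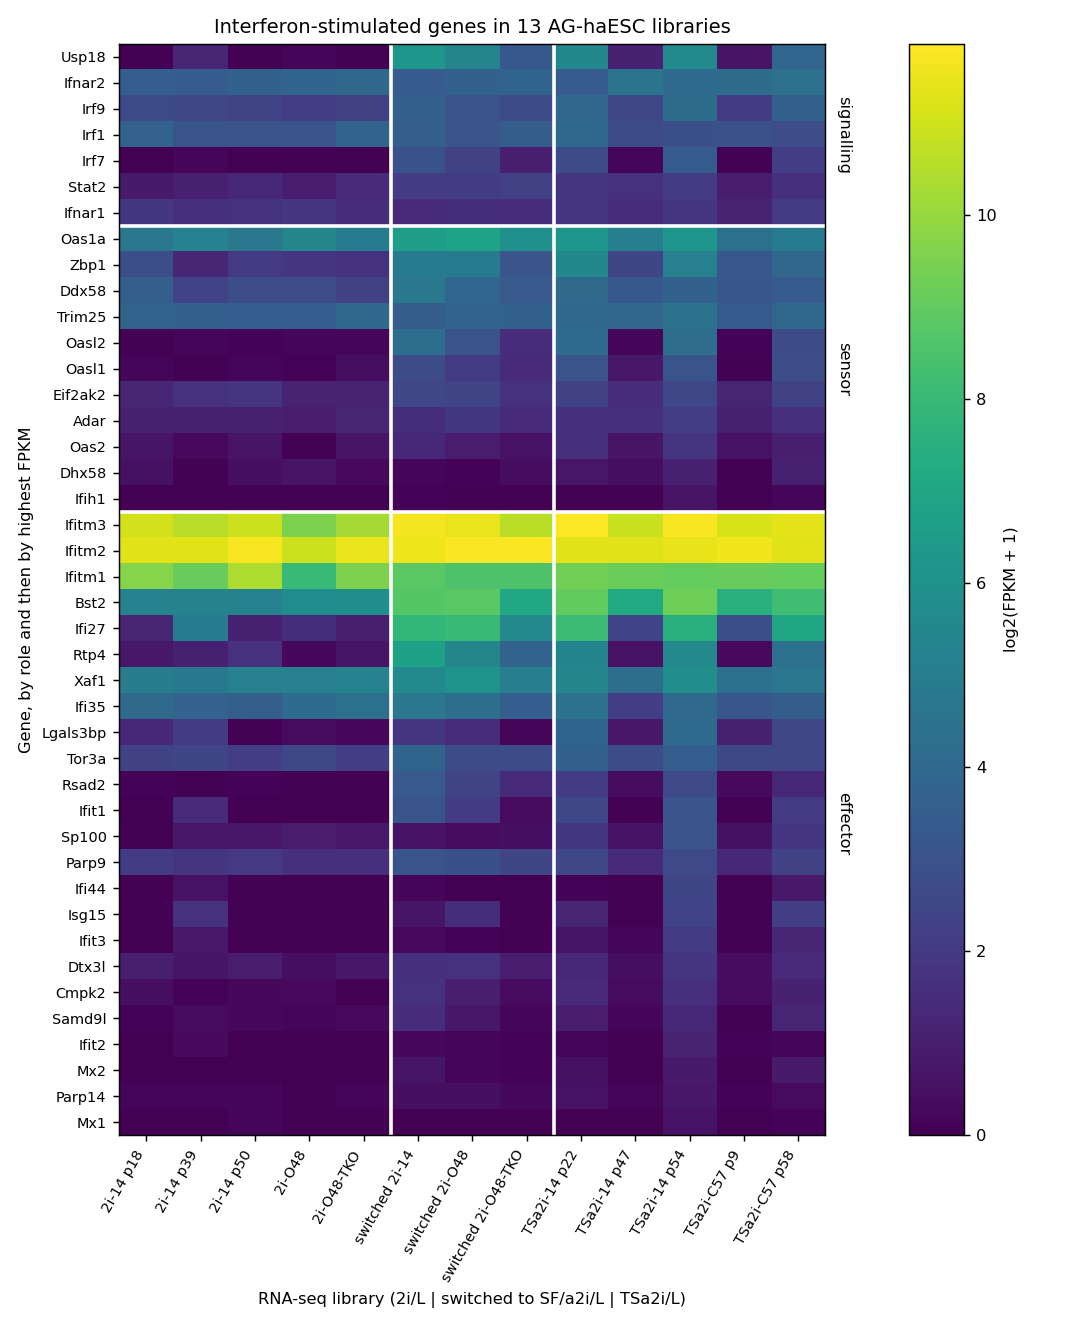
Heat map of log2(FPKM + 1) of the 42 genes (rows, grouped by role and ordered by highest FPKM) in the 13 libraries (columns, separated by medium). Within each row of Usp18, Irf7, Oasl2, Ifi27 and Rtp4, 2i/L, TSa2i-14 p47 and TSa2i-C57 p9 are darker than the other 6 libraries. Between rows the shades overlap, with Ifi27 at 27.3 FPKM in 2i-14 p39 and Irf7 at 0.972 FPKM in switched 2i-O48-TKO. The Ifitm rows are bright in all 13.

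The signalling factors fell into steady and variable genes. Ifnar1 ranged from 1.22 to 2.98 FPKM and Ifnar2 from 9.48 to 22.6 FPKM over the 13 libraries, so RNA of both receptor subunits was present in every one. Irf1, a transcription factor, ranged from 5.48 to 15.0 FPKM, with its highest value in TSa2i-14 p22. None of these 3 genes was ordered by medium in a way that separated 2i/L from the rest. Ifnar2 was above all of 2i/L (at most 15.1 FPKM) in 4 libraries, TSa2i-14 p47 and p54 and both passages of TSa2i-C57. In TSa2i-14 p22 and the switched cultures it was not.

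Usp18, which removes ISG15 from proteins and restrains signalling at the receptor, had the widest range in FPKM among the signalling factors. It was listed at 0, 1.40 and 0.0316 FPKM in the 3 passages of 2i-14, at 0.122 in 2i-O48 and at 0.0322 in 2i-O48-TKO. After the switch it was 75.4 FPKM in the wild-type line, 41.2 FPKM with the DMRs deleted and 8.49 FPKM in 2i-O48-TKO. All 3 switched cultures therefore lay above every library in 2i/L. In TSa2i/L it was 44.8, 1.16 and 50.4 FPKM in TSa2i-14, and 0.566 and 13.8 FPKM in TSa2i-C57. The p47 and p9 cultures lay within the range of 2i/L, whose top value was that of 2i-14 p39. Without 2i-14 p39 both lay above the libraries in 2i/L, which then reached 0.122 FPKM at most.

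Irf7, the transcription factor that amplifies interferon production, was listed at 0 in 4 of the 5 libraries in 2i/L and at 0.156 FPKM in 2i-14 p39. It was 7.04, 3.90 and 0.972 FPKM in the 3 switched cultures. It was 5.59, 0.113 and 9.86 FPKM in TSa2i-14 and 0.0473 and 3.43 FPKM in TSa2i-C57. The same 2 TSa2i/L cultures as for Usp18 lay within the range of 2i/L, again only through 2i-14 p39. In this gene 3 fragments give 0.105 FPKM at the lowest depth, so these low values are near or under that limit. Irf9 was present throughout, at 3.66 to 5.43 FPKM in 2i/L, 5.55 to 11.7 FPKM in the switched cultures and 3.33 to 17.5 FPKM in TSa2i/L, with TSa2i-C57 p9 lowest. Stat2 was 0.838 to 1.71 FPKM in 2i/L and 3.18 to 3.74 FPKM in the switched cultures. Unlike Usp18, Irf7 and Irf9, it had its highest switched value, 3.74 FPKM, in 2i-O48-TKO.

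Oasl2 and Oasl1, relatives of the oligoadenylate synthetases, were under 1 FPKM in every library in 2i/L. Oasl2 was 0.0466 to 0.118 FPKM in the 5 libraries in 2i/L and 18.6, 7.30 and 1.80 FPKM in the 3 switched cultures. It was 16.9, 0.156 and 17.9 FPKM in TSa2i-14, and 0.0737 and 5.79 FPKM in TSa2i-C57. Its highest value was 158-fold that of the highest library in 2i/L. Values near 0.1 FPKM in this gene are close to what 3 fragments give (0.0753 FPKM at the lowest depth), so the fold rests on few fragments. Oasl1, which lies next to Oasl2, was 0.0629 to 0.338 FPKM in 2i/L, 5.77, 3.10 and 1.71 FPKM in the 3 switched cultures, and 0.0381 to 7.48 FPKM in TSa2i/L.

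Oas1a, a synthetase of the messenger that activates RNase L, was abundant before the switch, at 24.9 to 41.0 FPKM in 2i/L, and stood at 61 to 116 FPKM in the switched cultures. In TSa2i/L it was 75, 33.9 and 75 FPKM in TSa2i-14, but 20.01 and 29.4 FPKM in TSa2i-C57, within or below the range of 2i/L. Zbp1, a sensor of nucleic acids in the Z form, was 1.40 to 6.24 FPKM in 2i/L, 29.9, 27.6 and 7.78 FPKM in the 3 switched cultures, and 4.57 to 44.0 FPKM in TSa2i/L. Ddx58, which encodes RIG-I, was 3.94 to 11 FPKM in 2i/L and 8.94 to 25.1 FPKM in the switched cultures, so the groups overlapped through 2i-14 p18, at 11 FPKM, while each line was higher after the switch. The other RNA helicases of the family were scarce. Ifih1 (MDA5) reached 0.562 FPKM at most, in TSa2i-14 p54, and Dhx58 reached 1.16 FPKM in the same library.

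Eif2ak2, the kinase PKR, was 1.23 to 2.44 FPKM in 2i/L and 2.24 to 4.85 FPKM in the switched cultures. Adar, which edits double-stranded RNA, was 0.915 to 1.35 FPKM in 2i/L and 1.07 to 3.51 FPKM in the other 8 libraries, with TSa2i-C57 p9 lowest of these. Oas2 stayed between 0.0507 and 2.49 FPKM. Trim25, a ubiquitin ligase that acts on RIG-I, was 9.12 to 21.1 FPKM and showed no separation of 2i/L from the other libraries.

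Among the effectors, Ifi27 reached the highest level of the genes whose mean in 2i/L was under 10 FPKM. It was 1.43, 27.3 and 1.10 FPKM in the 3 passages of 2i-14, while 2i-O48 had 1.90 FPKM and 2i-O48-TKO had 0.991 FPKM. The 3 switched cultures had 231, 256 and 46.9 FPKM. Every switched value was above every value in 2i/L. In TSa2i-14 it was 280 FPKM at p22, 4.29 at p47 and 173 at p54, and in TSa2i-C57 it was 6.27 at p9 and 123 at p58. Rtp4, a receptor transporter protein with antiviral activity, was 0.211 to 2.26 FPKM in 2i/L and 109, 41.6 and 12.6 FPKM in the 3 switched cultures. It was 39.9, 0.518 and 46.7 FPKM in TSa2i-14 and 0.218 and 19.98 FPKM in TSa2i-C57. Both genes repeated the order of Usp18 within TSa2i/L in that p47 and p9 were the 2 lowest libraries.

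Bst2, or tetherin, which holds budding virions at the cell surface, had a different shape. It was already 36.1 to 59.9 FPKM in 2i/L, and it was 429, 447 and 136 FPKM in the 3 switched cultures. It was 523, 149 and 605 FPKM in TSa2i-14 and 187 and 301 FPKM in TSa2i-C57. The cultures that were low for Usp18 and Ifi27 were the 2 lowest of TSa2i/L here as well, but they were above all of 2i/L. Rsad2, or viperin, was 0 to 0.0757 FPKM in 2i/L, 8.82, 4.47 and 1.76 FPKM in the switched cultures and 0.24 to 5.15 FPKM in TSa2i/L. Bst2 and Rsad2 were the 2 of 42 members that were above all 5 libraries in 2i/L in each of the other 8 libraries, where 1.78% of the 19824 symbols with a value above 0 were.

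**Figure D2:**
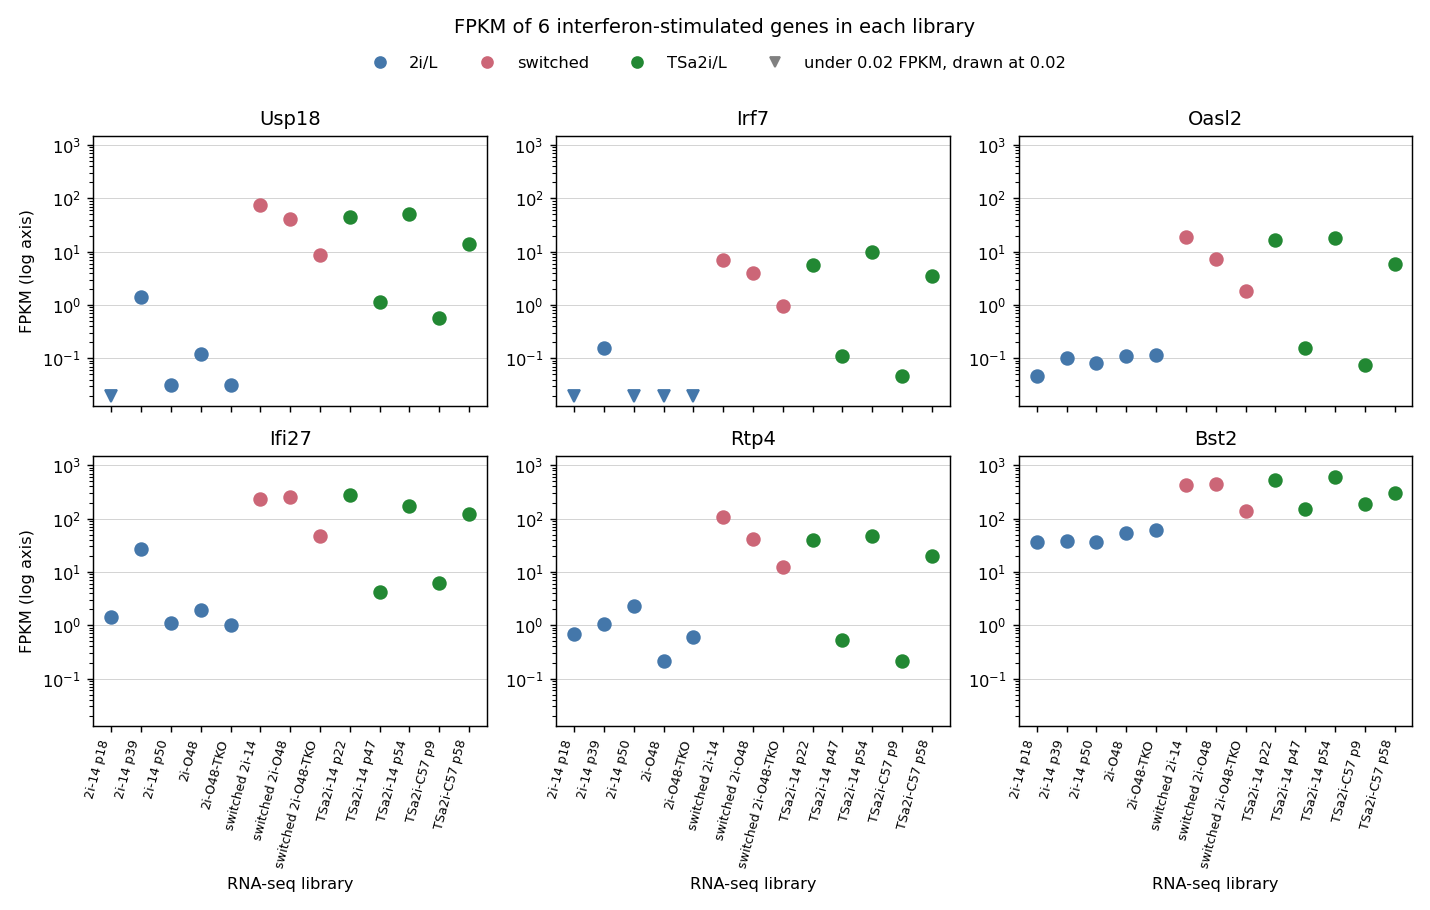
FPKM (log axis) of Usp18, Irf7, Oasl2, Ifi27, Rtp4 and Bst2 in each of the 13 libraries, 1 point per library, coloured by medium; triangles mark values under 0.02 FPKM. TSa2i-14 p47 and TSa2i-C57 p9 are the 2 lowest TSa2i/L points in all 6 panels, and for Bst2, at 149 and 187 FPKM, they remain above the points of 2i/L.

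The tandem-repeat RNA-binding proteins of the Ifit family were low. Ifit1 was listed at 0 in 4 of 5 libraries in 2i/L and at 1.70 FPKM in 2i-14 p39, and it was 7.34, 3.28 and 0.272 FPKM in the 3 switched cultures. In TSa2i/L it was 0 at p47 and p9, 4.74 and 7.77 FPKM in TSa2i-14 p22 and p54 and 3.04 FPKM in TSa2i-C57 p58. Ifit3 and Ifit2 peaked at 3.00 and 1.16 FPKM, both in TSa2i-14 p54. Isg15, the ubiquitin-like modifier that USP18 removes, was listed at 0 in 4 of 5 libraries in 2i/L, at 2.33 FPKM in 2i-14 p39, at 0.587, 1.94 and 0 FPKM in the 3 switched cultures, and at 4.17 FPKM at most, in TSa2i-14 p54. Levels of Isg15 were thus far below those of Usp18 in the switched cultures. Ifi44 reached 4.57 FPKM in TSa2i-14 p54 and stayed under 1 FPKM elsewhere.

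Parp9 and Dtx3l, which work as a complex, overlap by 682 bp on opposite strands of chromosome 16 (mm9), and no strand setting is stated, so their reads cannot be told apart there. Parp9 was 2.06 to 3.13 FPKM in 2i/L and 4.51 to 7.43 FPKM in the switched cultures, and Dtx3l was 0.370 to 0.973 FPKM and 0.888 to 2.28 FPKM. Rsad2 and Cmpk2, a nucleotide kinase, are neighbours on chromosome 12, 12.8 kb apart. Cmpk2 was 0 to 0.411 FPKM in 2i/L, 2.29, 1.02 and 0.257 FPKM in the 3 switched cultures, and 0.268 to 2.08 FPKM in TSa2i/L. Samd9l reached 1.87 FPKM in switched 2i-14. Oasl2 and Oasl1 on chromosome 5 are 11 kb apart, Ifit2 and Ifit3 on chromosome 19 are 7.1 kb apart, and Ifitm1 on chromosome 7 lies 11.2 kb from Ifitm2 and 39.8 kb from Ifitm3.

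Sp100, a nuclear body protein, and Lgals3bp, a secreted glycoprotein, had another pattern. Sp100 was 0.0356 to 0.931 FPKM in 2i/L and 0.258 to 0.501 FPKM in the switched cultures, against 2.78, 0.505 and 7.62 FPKM in TSa2i-14 and 0.449 and 2.62 FPKM in TSa2i-C57. Lgals3bp was 0 to 3.29 FPKM in 2i/L, 2.70, 1.85 and 0.113 FPKM in the 3 switched cultures, and 13.4, 0.679 and 16.5 FPKM in TSa2i-14. For both genes the high values lay in TSa2i-14 p22, p54 and TSa2i-C57 p58 and not in the switched cultures. These are also the 3 TSa2i/L libraries with the most fibroblast marker RNA (means of 0.960, 2.99 and 1.88 in log2(FPKM + 1)), and 2i-14 p39, which followed for Lgals3bp at 3.29 FPKM, had 2.13. The part of fibroblast RNA in this pattern was not tested. Tor3a, an ATPase of the torsin family, was 3.39 to 4.87 FPKM in 2i/L, 13.3, 5.78 and 5.78 FPKM in the 3 switched cultures, and 4.75 to 12 FPKM in TSa2i/L.

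Ifitm1 differed from most members. It was 845, 558 and 1375 FPKM in the 3 passages of 2i-14, while 2i-O48 had 263 FPKM and 2i-O48-TKO had 741 FPKM, against 374 to 447 FPKM in the switched cultures and 529 to 653 FPKM in TSa2i/L. It was the 1 member that exceeded the top of 2i/L in none of the other 8 libraries. Ifitm2 was 2011 to 3600 FPKM over the 13 libraries. Ifitm3 was 742 to 2105 FPKM in 2i/L, 3190, 2915 and 1616 FPKM in the 3 switched cultures, and 1876 to 3728 FPKM in TSa2i/L. Ifitm2 and Ifitm3 have similar sequences, and how reads shared by close copies were counted is not stated, so their split is uncertain. The same holds for Oas1a and Oas1g. Xaf1 (18.3 to 67.5 FPKM) and Ifi35 (3.61 to 24.9 FPKM) were present in every library and lowest in TSa2i-14 p47.

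The number of members above all 5 libraries in 2i/L summarised each of the other libraries. It was 28 in switched 2i-14, 28 in switched 2i-O48 and 18 in switched 2i-O48-TKO, where 15.8%, 19.2% and 17.6% of the 19824 symbols were. In TSa2i-14 it was 32 at p22 (19.6% of symbols), 8 at p47 (24.9%) and 37 at p54 (25.2%). In TSa2i-C57 it was 5 at p9 (20.1%) and 31 at p58 (28.5%). The 8 members at p47 and the 5 at p9 are 19.0% and 11.9% of 42, below the shares of all symbols in those libraries, an order that depended on 2i-14 p39. By role, 5 of 7 signalling factors, 11 of 11 sensors and 21 of 24 effectors were above 2i/L in TSa2i-14 p54, against 2, 3 and 3 in TSa2i-14 p47 and 1, 1 and 3 in TSa2i-C57 p9. Without 2i-14 p39, the counts became 33, 32 and 22 in the switched cultures, with 17.6%, 21.5% and 19.8% of symbols. At TSa2i-14 p47 the count became 13, or 31.0% of members, now above the 27.5% of symbols, and at TSa2i-C57 p9 it became 9, or 21.4% beside 22%. At TSa2i-14 p22 and p54 and TSa2i-C57 p58 it became 36, 37 and 32, with 21.8%, 28.9% and 31.9% of symbols.

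**Figure D3:**
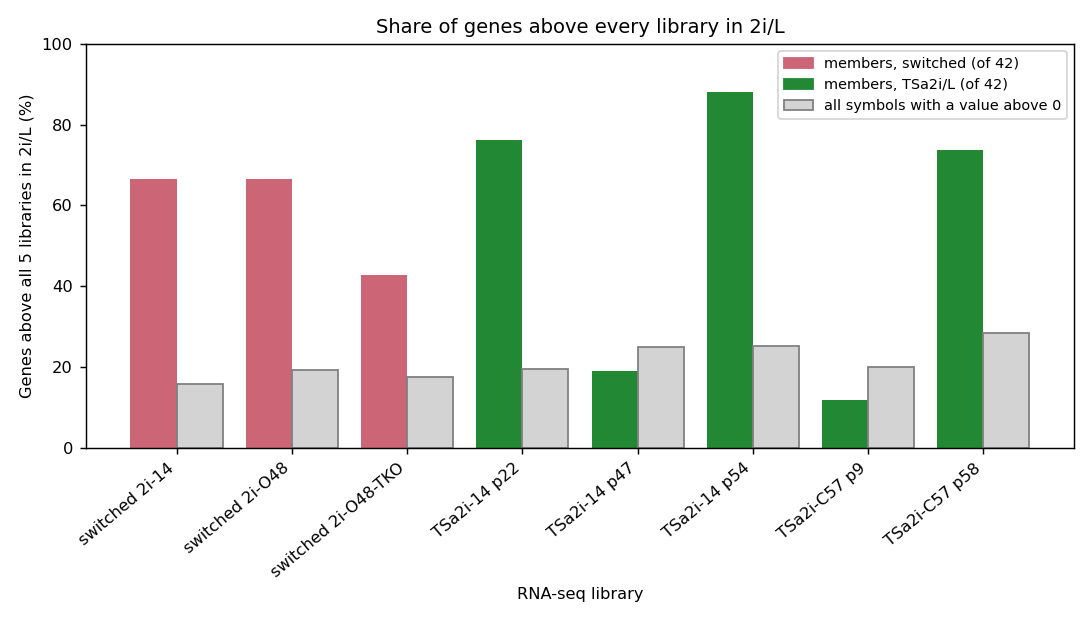
Percent of the 42 members (coloured bars) and of all symbols with a value above 0 (grey bars) that were above all 5 libraries in 2i/L, for each of the other 8 libraries. The coloured bar is the higher one in 6 libraries and the lower one in TSa2i-14 p47 (19.0% against 24.9%) and TSa2i-C57 p9 (11.9% against 20.1%); without 2i-14 p39, which the plot includes, the p47 shares are 31.0% against 27.5% and the p9 shares 21.4% against 22%.

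Within lines, 38 of 42 members were lower in TSa2i-14 p47 than in both p22 and p54, as were 25.5% of symbols, and 39 were lower than in p22 alone, as were 38.9% of symbols. 38 of 42 were lower in TSa2i-C57 p9 than in p58, as were 55.0% of symbols. The low culture was thus the middle of 3 passages in TSa2i-14 and the early of 2 in TSa2i-C57. The p54 and p58 cultures carried the most fibroblast RNA of TSa2i/L. In TSa2i-14 p54, 19 members had their highest value of the 13 libraries, against 9.12% of symbols.

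The switch pairs each line with itself, with p50 as the control of 2i-14. 26 of 42 members were higher in the switched culture in all 3 lines, as were 13.8% of symbols. With the line as a block in limma, 25 members passed the filter of 1 FPKM in at least 3 libraries. Of these 25, 4 were under 1 FPKM in every unswitched library (Usp18, Oasl1, Oasl2 and Rsad2). These 4 could pass only through the switched cultures, and all of them are among the members called. 11 members were called (Benjamini-Hochberg adjusted p under 0.05), all higher after the switch, against 6.89% of 9759 genes tested, of which 217 were higher and 455 lower. This contrast was known when the genes were chosen, so nothing is read from the count. Differences in log2(FPKM + 1) are given with the SE of the limma fit. That SE draws on the variance of all genes and is not the SE of the 3 pairs alone. They were 5.95 ± 0.43 for Ifi27, 4.88 ± 0.53 for Usp18 and 4.43 ± 0.42 for Rtp4, the 3 largest. Oasl2 differed by 2.80 ± 0.49, Bst2 by 2.58 ± 0.43, Zbp1 by 2.44 ± 0.35 and Rsad2 by 2.35 ± 0.33. Oasl1 (1.84 ± 0.30), Oas1a (1.47 ± 0.23), Ddx58 (1.34 ± 0.25) and Parp9 (1.07 ± 0.20) followed. By role these are 1 signalling factor, 5 sensors and 5 effectors. The median difference was 0.89 over the 25 members and -0.09 over all genes tested. Without a filter 0 of 42 members and 0 of 18837 genes were called by limma, with 21 members and 17.0% of genes at an unadjusted p under 0.05. Without the line 2i-O48-TKO 21 members were tested and 4 were called, Bst2, Ifi27, Rtp4 and Zbp1, beside 1.03% of genes. Usp18, Oasl1, Oasl2 and Rsad2 did not pass the filter there and were not tested.

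The level after the switch was lowest in 2i-O48-TKO for most members. The switched 2i-O48-TKO culture had the lowest value of the 3 switched cultures for 30 of 42 members, as for 22.7% of symbols. The difference in log2(FPKM + 1) for Usp18 was 6.21 for 2i-14, 5.23 for 2i-O48 and 3.20 for 2i-O48-TKO, and for Oasl2 it was 4.18, 2.90 and 1.32. Ifi27 differed by 6.78, 6.47 and 4.59, Bst2 by 3.53, 3.04 and 1.17, and Ifit1 by 3.06, 2.10 and 0.35. Stat2, with 0.68, 1.19 and 0.80, did not follow this order. With p39 as the control of 2i-14, Ifi27 differed by 3.04 in that line, under the 4.59 of 2i-O48-TKO. With 1 library per line after the switch, the differences between lines have no replicate check.

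**Figure D4:**
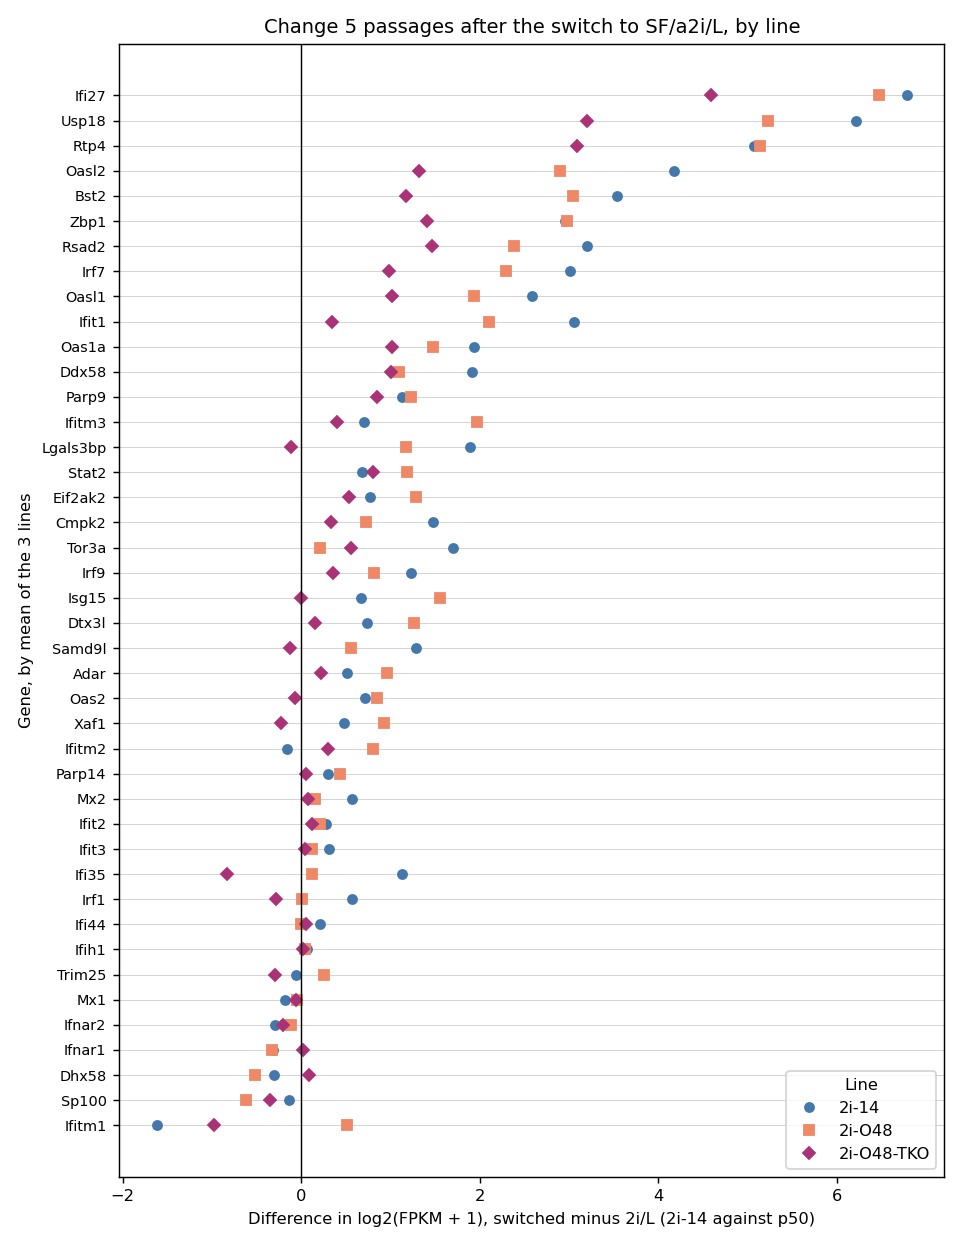
Difference in log2(FPKM + 1) between the switched culture and the same line in 2i/L for the 42 genes, ordered by the mean of 3 lines, with 1 point per line. The points of 2i-O48-TKO lie left of the other lines for the genes at the top, such as Usp18 at 3.20 against 5.23 and 6.21, and Ifitm1 has 2 points below 0 and 1 above.

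In the comparison of 5 TSa2i/L with 3 2i/L libraries, 32 members passed the filter, 7 of them under 1 FPKM in all 3 libraries in 2i/L. 1 of the 32 was called by limma, Bst2, and 7.57% of 10387 genes tested were. Bst2 was 353 ± 202 FPKM (SD, n = 5) against 37.2 ± 1.06 (SD, n = 3), a difference in log2(FPKM + 1) of 3.01 ± 0.40 (SE). 15 members and 23.1% of all genes tested had an unadjusted p under 0.05. The median difference was 0.60 over the 32 members and 0.07 over all genes tested. Members with larger differences had wide spreads in TSa2i/L, where p47 and p9 lay far under the other cultures. Ifi27 was 117 ± 117 FPKM (SD, n = 5) against 9.93 ± 15.0 (SD, n = 3) and Usp18 was 22.1 ± 23.9 against 0.478 ± 0.801, and neither was called. Without TSa2i-C57 p9, Oasl1 and Usp18 were called with Bst2 (6.63% of genes), and without TSa2i-14 p47 Zbp1 was (4.31% of genes). Without TSa2i-14 p22 Ifnar2 was called as higher with Bst2 (8.22% of genes). Without 2i-14 p39 Ifitm1 was called as lower (2.91% of genes). With the libraries of 2i-O48 and 2i-O48-TKO counted in the 2i/L group, 6 members were called, Bst2, Ifitm3, Oasl1, Rsad2, Usp18 and Zbp1, and the share of all genes called rose to 12.4%. Of the members called in these fits, Oasl1 and Rsad2 were under 1 FPKM in every library in 2i/L. They passed the filter only through TSa2i/L.

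The remaining comparisons were between passages and between lines. 3 late against 2 early passages in TSa2i/L gave 0 called members of 36 tested by limma and 0% of 10502 genes, with a smallest adjusted p of 0.572 (Irf1) and 0 members and 8.84% of genes at an unadjusted p under 0.05. TSa2i-C57 against TSa2i-14 gave 0 of 36 by limma and again 0% of genes, with a smallest adjusted p of 0.999 and 2 members and 3.49% of genes at an unadjusted p under 0.05. 34 of these 36 members had a lower mean log2(FPKM + 1) in TSa2i-C57, while 4839 of the 10502 genes tested had a higher one. The median difference was -0.52 in log2(FPKM + 1) against -0.02 over all genes. Without TSa2i-14 p47, 20 of 36 members and 2.93% of genes had an unadjusted limma p under 0.05, and 0 were called. Without TSa2i-14 p22 or p54 it was 1 member each. The lines 2i-O48 and 2i-O48-TKO against 2i-14 in 2i/L gave 0 of 22 by limma and 0.118% of 10164 genes, with a smallest adjusted p of 0.347 and 2 members and 5.79% of genes at an unadjusted p under 0.05. The smallest adjusted p belonged to Ifitm3, at 982 ± 339 FPKM (SD, n = 2) against 1869 ± 295 (SD, n = 3). With 2 or 3 libraries a group, a difference within the wide spread of these genes could not be detected.

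Fibroblast and Y-linked RNA moved with part of this pattern. In bulk RNA, fewer cells of a type and less RNA per cell cannot be told apart. The mean log2(FPKM + 1) of 15 fibroblast markers was highest in TSa2i-14 p54 at 2.99, followed by 2i-14 p39 at 2.13, TSa2i-C57 p58 at 1.88 and TSa2i-14 p22 at 0.960, and it was 0.288 to 0.633 in the other 9 libraries. Their summed level was 201, 95.5, 80.1 and 29.0 FPKM in those 4 libraries and 4.54 to 25.6 FPKM elsewhere. Y-linked Eif2s3y was 2.07, 3.12, 1.22 and 0.166 FPKM in the 4, 0.124 FPKM in switched 2i-14 and 0 in the other 8. 2i-14 p39 had the highest Eif2s3y and, for 10 of 42 members, the highest value of the 5 libraries in 2i/L, as for 17.6% of symbols. Its Usp18 was 1.40 FPKM, and that of TSa2i-14 p22, at the lower fibroblast mean of 0.960, was 44.8 FPKM. The switched 2i-O48 and 2i-O48-TKO cultures, with Eif2s3y at 0 and fibroblast means of 0.466 and 0.504, had 41.2 and 8.49 FPKM of Usp18. With the fibroblast mean as a covariate, Bst2 was still the 1 member called of 32 tested in TSa2i/L against 2i/L, beside 7.70% of genes. Without the 3 libraries in which that mean was highest, Bst2 was the 1 called of 21 members tested, beside 1.41% of genes. These fits concern only which members were called between the media. The part of feeder RNA in the levels of TSa2i-14 p54 and TSa2i-C57 p58 was not tested.

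**Figure D5:**
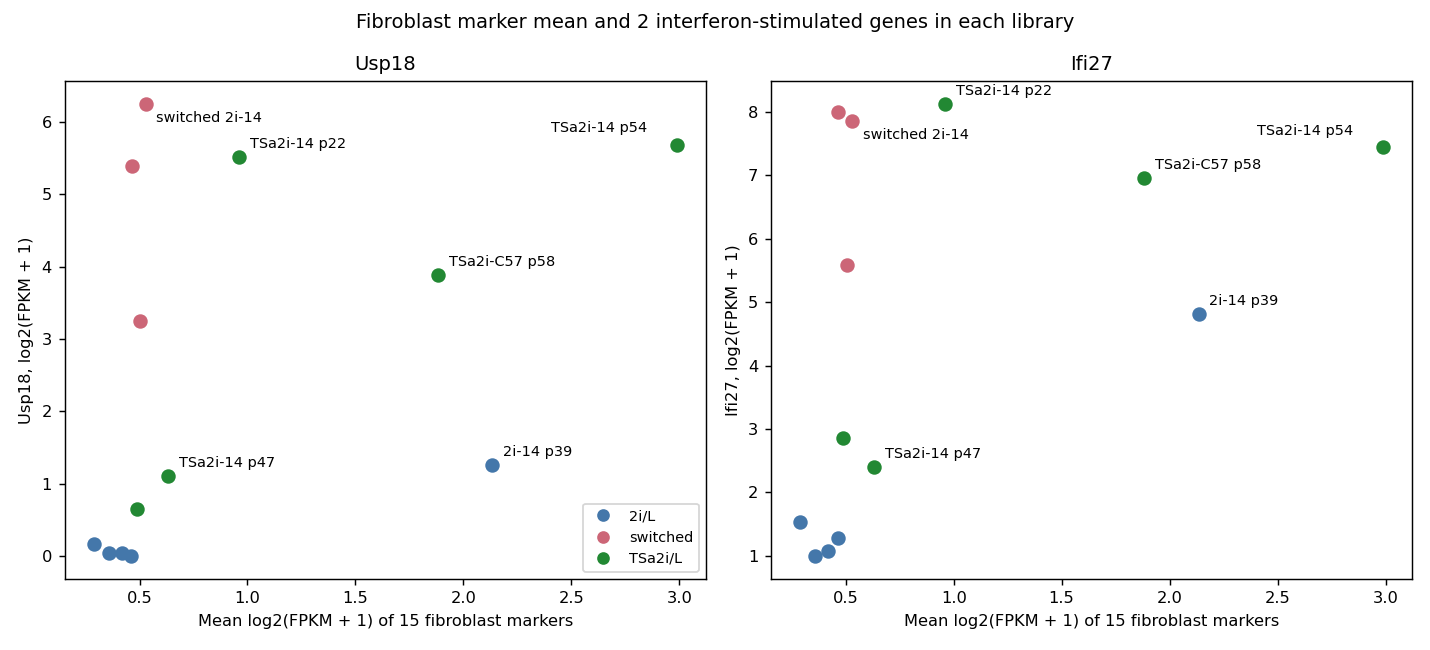
Mean log2(FPKM + 1) of 15 fibroblast markers (horizontal axis) against log2(FPKM + 1) of Usp18 (left) and Ifi27 (right), 1 point per library, coloured by medium. The switched cultures stand high for both genes at fibroblast means of 0.466 to 0.528, and 2i-14 p39, at 2.13, stands below TSa2i-14 p54 and TSa2i-C57 p58.

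Other genes of the pathway were read from a list of 74, of which 70 were in the tables. 17 interferon ligand genes were listed. 14 of them stood at 0 in all 13 libraries, and Ifnb1, Ifnk and Ifnz did not exceed 0.169 FPKM. Each of the 3 was at 0 in at least 9 libraries, so no ligand RNA beyond a few fragments was detectable at this depth. The receptor kinases were present, Jak1 at 3.45 to 6.91 FPKM and Tyk2 at 1.10 to 2.51 FPKM, without separation by medium. After the switch 3 of 27 tested list genes were called by limma, beside 6.89% of all genes tested. All 3 were higher, namely Oas1b (2.04 ± 0.33 in log2(FPKM + 1), SE), Oas1g (1.79 ± 0.24) and Trim34a (1.34 ± 0.20). The median difference of the 27 was -0.13, beside -0.09 over all genes. In TSa2i/L against 2i/L 1 of 29 was called by limma, Oas1b (1.50 ± 0.40), beside 7.57% of all genes tested. Oas1b was 0.242 to 0.302 FPKM in the 3 libraries of 2i-14 in 2i/L, so it passed the filter only through TSa2i/L. The list was chosen with earlier results known, so nothing is read from these counts.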

How the data were processed

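RNA-seq was analysed for 13 libraries. The deposited FPKM values were computed by the authors with Cufflinks from reads of amplified full-length cDNA mapped to mm9. The submitters' processing notes list Bowtie2 2.2.2, TopHat2 2.0.11 and Cufflinks 2.2.1. The gene annotation and any scaling between libraries are not given in the sources used here. Rows with the same symbol were summed. Depth was estimated from the FPKM worth of single fragments on 3737 genes over 1500 bp with 1 annotated transcript, and limits from 3 fragments cover counting error only.

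FPKM values are not counts, so limma 3.58.1 (R 4.3.3, intensity trend, Benjamini-Hochberg threshold 0.05) was fitted to log2(FPKM + 1) over all genes with at least 1 FPKM in at least 3 libraries (TSa2i/L and switch comparisons) or 2 (others). The pseudocount of 1 understates differences of low genes. Switched cultures were paired with the same cell line, as labelled, and the deviations of paired libraries correlated at 0.172 for 2i-14, -0.141 for 2i-O48 and 0.358 for 2i-O48-TKO. All samples are single cultures, so p-values measure the spread between these cultures. Fits and depth estimates were checked on simulated data. All members were named, with log2 differences for those called, and of the pathway list the called genes with Jak1 and Tyk2. The other genes of that list entered as counts, and 1 gene was left out of it and is not reported here. The members, roles and lists were chosen with earlier results of these data known. Alternatives covered the pseudocount, filter, scaling, libraries, controls, block, fibroblast covariate and repeated symbols. The counts without 2i-14 p39 or TSa2i-14 p54 were chosen after seeing the data. Coordinates of genes are from GENCODE vM1 (mm9), where 41 of 42 members matched. Methylation and chromatin samples were not analysed here.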

Additional observations from a re-analysis of the deposited data

Results flagged for a closer look

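Irf1 in TSa2i-14 p22, at 15.0 FPKM, stood apart from the other 4 TSa2i/L libraries, at 5.48 to 6.61 FPKM. Its gap to the nearest of them was 0.822 of the range of the 5 libraries. It was 1 of 32 members looked at in this way, where chance gives about 1.6.

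Ifitm2 was lower after the switch in 2i-14 and higher in both DMR-deleted lines, with p50 as the control of 2i-14. The difference in log2(FPKM + 1) was -0.16 in 2i-14 and 0.80 and 0.30 in the 2i-O48 and 2i-O48-TKO lines. Against p39 or p18 the difference in 2i-14 was 0.23 and 0.26, so that all 3 lines had the same sign. The difference between lines was not tested. Ifitm2 was the 1 member of 25 in which 2i-14 had the opposite sign to both DMR-deleted lines, as 19.8% of 9759 genes tested had.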

How the results depend on the processing

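In the comparison of TSa2i/L with 2i/L the number of called members was 1. It was 1 to 3 when each library was left out in turn, beside 2.91% to 8.22% of genes. It was 6 with both DMR-deleted lines counted in the 2i/L group, where 12.4% of all genes were called. Bst2 was called in each of the 17 alternatives, with differences in log2(FPKM + 1) of 2.71 to 3.26. After the switch the 11 called members became 0 without a filter on low FPKM and 4 to 11 when each line was left out in turn, with 4 without 2i-O48-TKO. Without the replicate block there were also 11, with Stat2 in place of Ddx58, and the block on the line in late against early TSa2i/L passages gave 0. Controls 2i-14 p39 or p18 gave 15 and 13, with 15.5% and 15.1% of all genes called against 6.89%. The differences of Bst2 and of the 11 members called after the switch kept their sign in each alternative in which they were tested. Each of the 11 was higher in all 3 lines, and Bst2 in TSa2i/L was above every library in 2i/L. Leaving out a line or library could therefore not turn a sign, so the kept signs are no check. Usp18, Oasl1, Oasl2 and Rsad2 did not pass the filter when a line was left out, and Rtp4 did not without 2i-14. They were not tested there. Median centring shifted the median of all genes by -0.12 (TSa2i/L against 2i/L), 0.17 (switch) and -0.12 (late against early), and under centring 1, 12 and 0 members were called. The other comparisons gave 0 called members under every alternative run. Without 2i-14 p39, the members above 2i/L went from 8 to 13 in TSa2i-14 p47 and from 5 to 9 in TSa2i-C57 p9, and the share at p47 turned from below that of all symbols to above it (31.0% against 27.5%). The fits with 2 or 3 libraries a group limit what can be called, and values under the worth of 3 fragments carry no order.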
